A study of Homo sapiens with 18 samples.

Results

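Neuroblastoma cells of the adrenergic state are held there by a set of transcription factors that also build the sympathetic nervous system, and 8 genes of that set are described here: PHOX2A, ISL1, HAND1, HAND2, GATA2, GATA3, TBX2 and LMO1. They were taken by symbol from the annotation of the array's probes, which gives 1 symbol to 17709 of the 21448 probes (17687 genes), and each of the 8 has 1 probe. RNA was measured on 18 whole-transcript arrays, 3 for each of 6 groups. The groups are CHLA-90 and SK-N-BE(2) neuroblastoma cells that received a pLKO lentivirus with the short hairpin RNA shERK5-4, the short hairpin RNA shERK5-5 or the control hairpin shNSC, and RNA was taken 72 hours later. Both shERK5 hairpins target the transcript of MAPK7, which encodes the kinase ERK5. Every group carries a lentivirus, made in HEK-293T cells, so no group shows untransduced cells. The labels do not say that transduced cells were selected, so a culture may hold cells without a hairpin.

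Core regulatory factors bind the large enhancers of their own genes and of one another's, and in this way keep a cell's identity stable. In the sympathetic lineage the homeodomain factor PHOX2A and the LIM-homeodomain factor ISL1 act with the basic helix-loop-helix factors HAND1 and HAND2, which bind E-boxes together with E-proteins, and with the zinc finger factors GATA2 and GATA3. They switch on the genes of noradrenaline synthesis and storage. TBX2 is a T-box repressor that belongs to the same circuit in neuroblastoma, and LMO1 is a LIM-only cofactor that binds no DNA itself and bridges other factors through LDB1.

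Array medians lay between 6.35 and 6.43 (log2 signal) in CHLA-90 and between 5.63 and 5.69 in SK-N-BE(2), and the mean correlation of an array with the others of its group was 0.989 to 0.996, lowest for CHLA-90 shERK5-5 replicate 1. The replicates are labelled biological triplicates. The targeted gene, MAPK7, had log2 signals of 7.15, 7.57 and 7.33 with shERK5-4, 7.24, 7.83 and 7.22 with shERK5-5, and 8.37, 8.24 and 8.64 with shNSC in CHLA-90. Its SK-N-BE(2) signals were 5.97, 6.28 and 6.02 with shERK5-4, 6.14, 6.02 and 6.28 with shERK5-5, and 6.99, 6.46 and 6.90 with shNSC. All shERK5 arrays lay below the shNSC arrays of their line. In CHLA-90 MAPK7 was at 47.7% of its shNSC signal under shERK5-4 and 50.5% under shERK5-5, and at 61.8% and 64.3% in SK-N-BE(2). The label was checked against 9 neuroblastoma markers: 9 of them lay above the 75 percentile of all probes in CHLA-90 with shNSC and 7 of 9 in SK-N-BE(2) with shNSC, where DBH, dopamine beta-hydroxylase, stood at the 43.0 percentile. All 5 Schwann cell and all 5 endothelial markers lay below the median of all probes in every group, as did 3 of 4 blood cell markers in SK-N-BE(2) and 4 of 4 in CHLA-90. Of 6 fibroblast markers, 1 lay above the 75 percentile in CHLA-90 with shNSC and 3 in SK-N-BE(2) with shNSC. Precision is limited by having 3 arrays a group. The background of a probe is unknown, since the table carries no calls of detection.

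The 250 bases before the RefSeq start of PHOX2A, HAND1, ISL1 and HAND2 (build GRCh38.p14) are shown because the first 3 of these genes had the largest falls of the set and HAND2 is the close relative of HAND1, called in no comparison with shNSC. Capitals mark the 4 motifs searched on both strands: the E-box CANNTG bound by basic helix-loop-helix factors, GATAA of GATA factors, TAATTA of homeodomain factors and GGTGTG, a core of T-box sites.
PHOX2A, chr11:72244177-72244426, - strand: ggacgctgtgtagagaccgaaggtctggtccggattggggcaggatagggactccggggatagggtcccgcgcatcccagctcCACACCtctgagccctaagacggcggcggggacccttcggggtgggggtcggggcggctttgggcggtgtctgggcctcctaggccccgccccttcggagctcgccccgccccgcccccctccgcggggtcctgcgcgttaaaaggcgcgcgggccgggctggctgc
HAND1, chr5:154478228-154478477, - strand: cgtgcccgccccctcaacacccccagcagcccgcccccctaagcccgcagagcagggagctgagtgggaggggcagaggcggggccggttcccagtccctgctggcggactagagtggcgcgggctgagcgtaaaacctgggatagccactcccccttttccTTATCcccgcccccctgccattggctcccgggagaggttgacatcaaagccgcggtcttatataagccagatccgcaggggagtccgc
ISL1, chr5:51383198-51383447, + strand: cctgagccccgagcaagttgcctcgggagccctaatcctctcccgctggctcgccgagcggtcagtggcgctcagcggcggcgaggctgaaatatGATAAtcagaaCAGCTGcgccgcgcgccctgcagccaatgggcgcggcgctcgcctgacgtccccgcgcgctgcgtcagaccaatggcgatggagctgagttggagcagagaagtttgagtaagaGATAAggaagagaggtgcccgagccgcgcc
HAND2, chr4:173530230-173530479, - strand: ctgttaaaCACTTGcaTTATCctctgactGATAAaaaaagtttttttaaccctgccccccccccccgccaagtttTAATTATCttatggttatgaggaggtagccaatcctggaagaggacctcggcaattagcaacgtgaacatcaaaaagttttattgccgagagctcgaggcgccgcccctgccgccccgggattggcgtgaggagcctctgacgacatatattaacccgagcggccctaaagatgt
The PHOX2A window held 1 GGTGTG motif and none of the others, and the HAND1 window held 1 GATAA motif. ISL1 had 1 E-box and 2 GATAA motifs. HAND2 had 1 E-box, 3 GATAA motifs and 1 TAATTA, which overlaps 1 of the GATAA motifs. Of all 35116 such windows, 61.8% held an E-box, 20.4% GATAA, 4.35% TAATTA and 14.2% GGTGTG. RefSeq windows were at hand for 7 of the 8 genes, all but TBX2. A match of letters is a description of the sequence and not a binding site.

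With shERK5-4 most of the 8 genes fell in CHLA-90: 6 were lower and 0 higher, by a limma model over all probes with Benjamini-Hochberg adjustment and a threshold of 0.05. HAND2 and GATA2 were not called. Over all probes 18.3% were called in that comparison, 8.25% lower and 10.0% higher. The 8 genes were chosen with earlier results of these data known, so the counts in this paragraph describe the set and are not independent support. ISL1, HAND1 and PHOX2A fell to 10.3%, 10.6% and 20.7% of their shNSC signal, TBX2 to 39.8%, and LMO1 and GATA3 to 64.8% and 68.6%. In SK-N-BE(2) the same hairpin lowered 2 of the 8, ISL1 and HAND1, with 0 higher, where 23.9% of all probes were called, 11.7% lower and 12.2% higher. With shERK5-5 the pattern was smaller and mixed. In CHLA-90 HAND1 and TBX2 were lower and 0 genes higher (12.7% of all probes called, 6.84% lower and 5.85% higher), and in SK-N-BE(2) GATA3 and LMO1 were higher and 0 lower (12.8% of all probes called, 6.76% higher and 6.07% lower). With only 8 genes, these counts of 2, that of shERK5-4 in SK-N-BE(2) included, do not set them apart from all probes. In CHLA-90 the median log2 change of the 8 genes was -0.98 for shERK5-4 and -0.31 for shERK5-5, against 0.01 and 0.05 over all probes. In SK-N-BE(2) the medians of the 8 genes were -0.41 and 0.11, against 0.01 and -0.0033 over all probes. The genes lower with both hairpins in CHLA-90 were HAND1 and TBX2, a pattern that 1.77% of all probes shared, and those lower with shERK5-4 in both lines were ISL1 and HAND1, against 5.00% of all probes. Both hairpins of a line are set against the same 3 shNSC arrays. In RNA from whole cultures, fewer cells with a transcript and less of it per cell cannot be told apart. The neuroblastoma markers moved along with the shERK5-4 falls. With shERK5-4, 5 of 9 were lower in CHLA-90 and 6 of 9 in SK-N-BE(2), with 0 higher, and their mean log2 signal was 12.96 to 13.16 on the shERK5-4 arrays against 14.48 to 14.65 on the shNSC arrays in CHLA-90, and 10.88 to 11.30 against 11.92 to 12.04 in SK-N-BE(2). With shERK5-5 it was 14.33 to 14.54 in CHLA-90 and 12.05 to 12.26 in SK-N-BE(2). The mean over the 6 fibroblast markers was 7.23 to 7.52 with shERK5-4, 7.90 to 8.32 with shERK5-5 and 7.69 to 7.87 with shNSC in CHLA-90, and 8.75 to 8.91, 10.16 to 10.33 and 9.33 to 9.46 in SK-N-BE(2). The part of these shifts in the results was not tested.

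**Figure D1:**
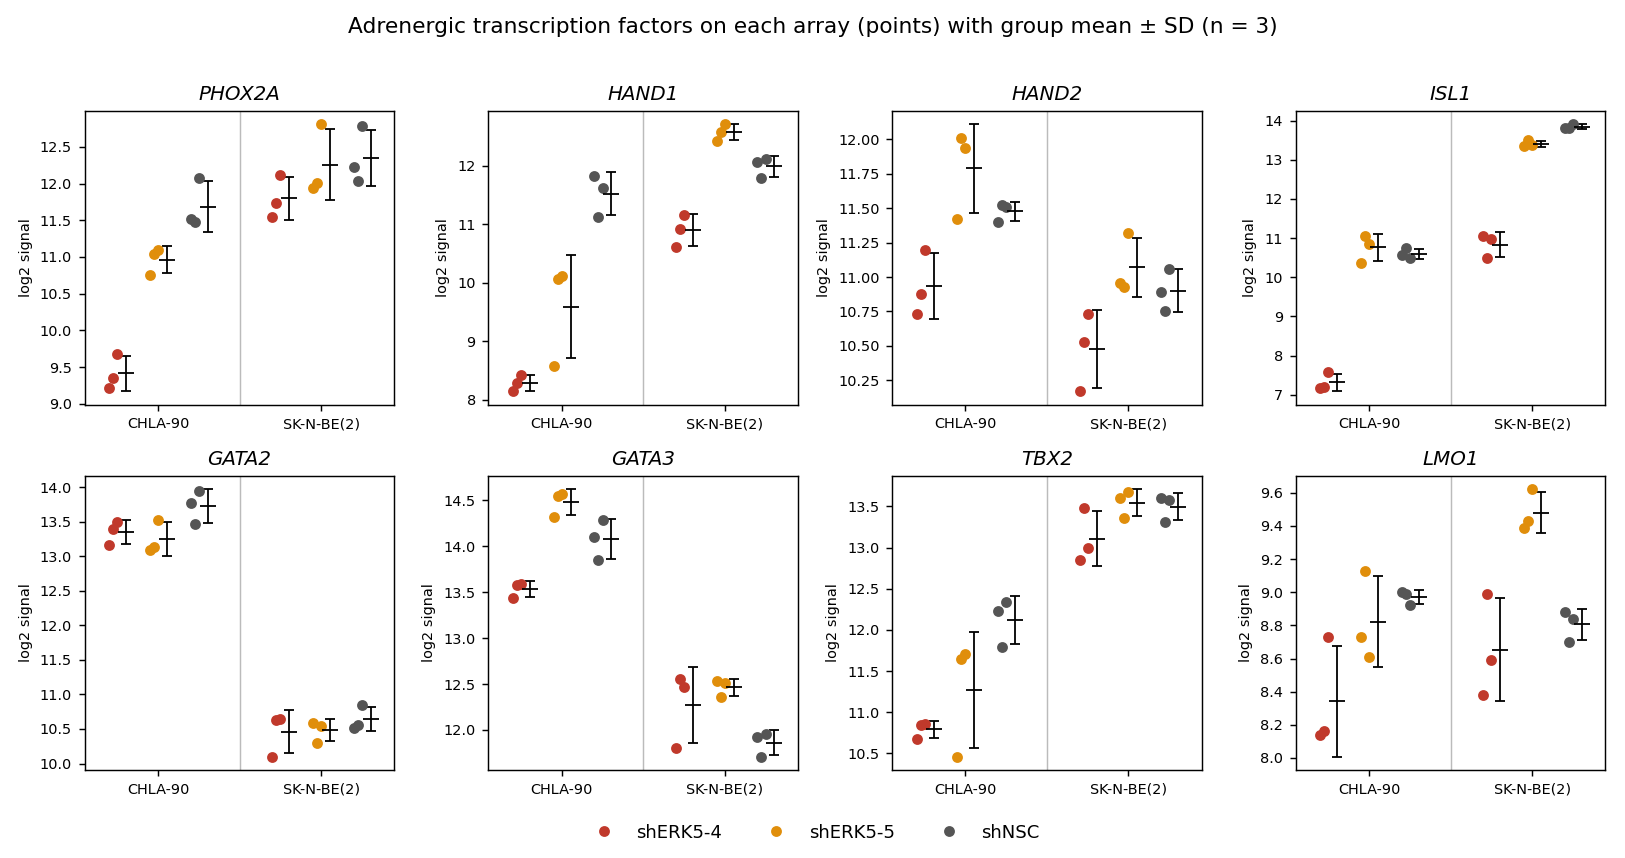
Log2 signal of the 8 genes on each array (points; y axis, separate for each gene), grouped on the x axis by line and coloured by hairpin, with the group mean and SD (n = 3) to the right of the points. The shERK5-4 arrays of ISL1, HAND1 and PHOX2A lie below all others of their line, except for PHOX2A in SK-N-BE(2).

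ISL1, which specifies sympathetic and motor neurons, fell about as far as HAND1 with shERK5-4 in CHLA-90 and further than any other of the 8 genes with shERK5-4 in SK-N-BE(2). In CHLA-90 its log2 signal was 7.17, 7.20 and 7.57 with shERK5-4, 10.37, 11.06 and 10.85 with shERK5-5, and 10.56, 10.74 and 10.48 with shNSC. The shERK5-4 arrays lay far below the rest, and the shERK5-5 arrays spread on both sides of the shNSC arrays. SK-N-BE(2) cells had 11.05, 10.48 and 10.97 with shERK5-4, 13.35, 13.50 and 13.38 with shERK5-5, and 13.80, 13.80 and 13.91 with shNSC. Here the groups did not overlap, and shERK5-5 sat slightly below shNSC. The log2 change with shERK5-4 was -3.28 ± 0.19 (SE) in CHLA-90 (limma adjusted p = 3.46e-11) and -3.00 ± 0.19 in SK-N-BE(2) (adjusted p = 7.3e-11). With shERK5-5 it was 0.17 (95% interval -0.23 to 0.56, adjusted p = 0.64) in CHLA-90 and -0.43 (-0.82 to -0.03, adjusted p = 0.173) in SK-N-BE(2). Both shERK5-4 calls held in each of the 17 alternative analyses of the comparison.

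PHOX2A, an activator of the dopamine beta-hydroxylase gene, fell with shERK5-4 in CHLA-90. Its log2 signal there was 9.21, 9.35 and 9.68 with shERK5-4, 10.75, 11.04 and 11.09 with shERK5-5, and 11.51, 11.47 and 12.08 with shNSC. The 3 groups did not overlap, in the order shNSC, shERK5-5, shERK5-4 from high to low. The SK-N-BE(2) signals were 11.54, 11.73 and 12.12 with shERK5-4, 11.94, 12.01 and 12.81 with shERK5-5, and 12.23, 12.04 and 12.78 with shNSC, and all 3 groups overlapped. Replicate 3 was the highest array for this gene in each of the 6 groups. The log2 change with shERK5-4 was -2.27 ± 0.24 in CHLA-90 (adjusted p = 3.76e-07, called in all 17 alternatives) and -0.55 (95% interval -1.06 to -0.05, adjusted p = 0.113) in SK-N-BE(2). With shERK5-5 it was -0.73 (-1.23 to -0.22) in CHLA-90, where the adjusted p of 0.053 missed the threshold. Of 17 alternatives 5 called it (adjusted p between 0.00534 and 1), and the lowest value was that of the replicate block. The SK-N-BE(2) value was -0.10 (-0.60 to 0.41, adjusted p = 0.891). For shERK5-4 in SK-N-BE(2), 1 of 17 alternatives, the replicate block, called the change of -0.55 (adjusted p = 0.0156).

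HAND1, a basic helix-loop-helix factor of heart and sympathetic development, was the gene called in 3 of the 4 comparisons with shNSC. In CHLA-90 its log2 signal was 8.15, 8.28 and 8.43 with shERK5-4, 8.57, 10.07 and 10.12 with shERK5-5, and 11.83, 11.12 and 11.62 with shNSC. All 6 shERK5 arrays lay below the 3 shNSC arrays, and shERK5-5 replicate 1 lay near the shERK5-4 arrays. In SK-N-BE(2) it was 10.61, 10.92 and 11.16 with shERK5-4, 12.43, 12.58 and 12.71 with shERK5-5, and 12.07, 11.79 and 12.11 with shNSC. There the shERK5-4 arrays were below and the shERK5-5 arrays above all shNSC arrays. The log2 change in CHLA-90 was -3.24 ± 0.29 with shERK5-4 (adjusted p = 2.4e-08) and -1.94 ± 0.29 with shERK5-5 (adjusted p = 7.33e-05), and both calls held in all 17 alternatives. Without shERK5-5 replicate 1 the shERK5-5 change was -1.43 (adjusted p = 0.000106). The SK-N-BE(2) change was -1.09 ± 0.29 with shERK5-4 (adjusted p = 0.00632) and 0.58 (95% interval -0.01 to 1.18, adjusted p = 0.236) with shERK5-5. The SK-N-BE(2) shERK5-4 call was lost when a change beyond 1.5-fold was required (adjusted p = 0.412, within a range of 0.000524 to 0.412 over its alternatives).

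HAND2, which sympathetic neurons need for noradrenergic differentiation, moved much less than HAND1. In CHLA-90 its log2 signal was 10.73, 10.88 and 11.20 with shERK5-4, 11.42, 12.01 and 11.94 with shERK5-5, and 11.40, 11.52 and 11.51 with shNSC. SK-N-BE(2) cells had 10.17, 10.53 and 10.73 with shERK5-4, 10.96, 10.93 and 11.32 with shERK5-5, and 10.89, 10.75 and 11.06 with shNSC. In both lines the shERK5-4 arrays lay just below all shNSC arrays, while shERK5-5 overlapped shNSC. None of the 4 changes passed the threshold: -0.54 (95% interval -0.94 to -0.14, adjusted p = 0.0551) and 0.31 (-0.09 to 0.71, adjusted p = 0.325) in CHLA-90 with shERK5-4 and shERK5-5, and -0.42 (-0.82 to -0.02, adjusted p = 0.127) and 0.17 (-0.23 to 0.57, adjusted p = 0.706) in SK-N-BE(2). The CHLA-90 shERK5-4 change was called in 8 of its 17 alternatives (adjusted p between 0.00783 and 1), among them the fit without shERK5-4 replicate 3 (log2 change -0.67, adjusted p = 0.0362).

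GATA2, a zinc finger factor of blood and sympathetic development, passed in none of the comparisons with shNSC. It had log2 signals of 13.16, 13.40 and 13.49 with shERK5-4, 13.09, 13.13 and 13.53 with shERK5-5, and 13.77, 13.46 and 13.94 with shNSC in CHLA-90. Its SK-N-BE(2) signals were 10.10, 10.63 and 10.65 with shERK5-4, 10.59, 10.30 and 10.55 with shERK5-5, and 10.52, 10.56 and 10.84 with shNSC. The groups overlapped in each line. Its log2 changes were -0.37 (95% interval -0.77 to 0.02, adjusted p = 0.206) and -0.47 (-0.87 to -0.08, adjusted p = 0.109) with shERK5-4 and shERK5-5 in CHLA-90, and -0.18 (-0.57 to 0.21, adjusted p = 0.589) and -0.16 (-0.55 to 0.23, adjusted p = 0.721) in SK-N-BE(2). GATA2 alone of the 8 genes was called in no comparison of a hairpin with shNSC or with the other hairpin.

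GATA3, the relative of GATA2, fell with shERK5-4 in CHLA-90 and rose with shERK5-5 in SK-N-BE(2). Its log2 signal in CHLA-90 was 13.44, 13.58 and 13.59 with shERK5-4, 14.32, 14.55 and 14.57 with shERK5-5, and 14.10, 13.85 and 14.29 with shNSC. The 3 groups did not overlap, with shERK5-4 lowest and shERK5-5 highest. The SK-N-BE(2) signals were 11.80, 12.55 and 12.47 with shERK5-4, 12.53, 12.36 and 12.51 with shERK5-5, and 11.92, 11.71 and 11.96 with shNSC. Here all shERK5-5 arrays and 2 of 3 shERK5-4 arrays lay above the shNSC arrays. The log2 change in CHLA-90 was -0.54 ± 0.185 with shERK5-4 (adjusted p = 0.0437) and 0.40 (95% interval 0.02 to 0.78, adjusted p = 0.172) with shERK5-5. In SK-N-BE(2) it was 0.41 (0.03 to 0.79, adjusted p = 0.123) with shERK5-4 and 0.60 ± 0.185 with shERK5-5 (adjusted p = 0.0323). Both calls lay near the threshold, and leaving out an array left changes of -0.66 to -0.44 in CHLA-90 and 0.53 to 0.66 in SK-N-BE(2). The CHLA-90 call did not survive dropping shNSC replicate 1 (adjusted p = 0.107) or 3 (0.184), nor shERK5-4 replicate 1 (0.136), 2 (0.0904) or 3 (0.0827). The SK-N-BE(2) call did not survive dropping shNSC replicate 1 (0.0663), 2 (0.14) or 3 (0.0514), nor shERK5-5 replicate 1 (0.103), 2 (0.0535) or 3 (0.098). Over all alternatives the adjusted p ran from 0.00667 to 1 for the CHLA-90 call and from 0.00786 to 1 for the SK-N-BE(2) call. Without shERK5-4 replicate 1 the SK-N-BE(2) shERK5-4 change was 0.65 and passed (adjusted p = 0.00847).

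TBX2, a repressor of the cell cycle inhibitor gene CDKN1A, fell in CHLA-90. Its log2 signal there was 10.67, 10.84 and 10.86 with shERK5-4, 10.46, 11.65 and 11.71 with shERK5-5, and 12.23, 11.79 and 12.34 with shNSC. All shERK5 arrays lay below the shNSC arrays, and shERK5-5 replicate 1 was the lowest of the 9, as it was the lowest of its group for HAND1. In SK-N-BE(2) the signal was 12.85, 13.48 and 13.00 with shERK5-4, 13.60, 13.36 and 13.67 with shERK5-5, and 13.60, 13.31 and 13.58 with shNSC, and the groups overlapped. The log2 change in CHLA-90 was -1.33 ± 0.25 with shERK5-4 (adjusted p = 0.000511) and -0.85 ± 0.25 with shERK5-5 (adjusted p = 0.0299). The shERK5-5 call did not survive dropping shERK5-5 replicate 1 (-0.44, adjusted p = 0.204), nor shNSC replicate 1 (adjusted p = 0.0977) or 3 (adjusted p = 0.128), within a range of 0.0111 to 1 over its alternatives. The shERK5-4 call held except with a required 1.5-fold (adjusted p = 0.0846, range 3.26e-06 to 0.0846). In SK-N-BE(2) the changes were -0.39 (95% interval -0.91 to 0.14, adjusted p = 0.325) with shERK5-4 and 0.05 (-0.48 to 0.57, adjusted p = 0.954) with shERK5-5. Of 3 genes measured that TBX2 is known to repress, 1 was higher with shERK5-4 in CHLA-90 and 1, NDRG1, was lower with shERK5-4 in SK-N-BE(2), and shERK5-5 gave 0 calls in either line by limma. Over all probes 18.3% were called with shERK5-4 in CHLA-90 and 23.9% in SK-N-BE(2), and with shERK5-5 12.7% and 12.8%. With only 3 genes, these counts do not set the list apart from all probes. CDKN1A changed by 0.75 ± 0.25 with shERK5-4 in CHLA-90 (adjusted p = 0.0352) and passed the threshold in none of the other 3 comparisons.

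LMO1, a neuroblastoma susceptibility gene, differed by less than 1 log2 unit everywhere. In CHLA-90 its log2 signal was 8.14, 8.16 and 8.73 with shERK5-4, 8.73, 9.13 and 8.61 with shERK5-5, and 9.0, 8.99 and 8.92 with shNSC. The shERK5-4 arrays lay below the shNSC arrays. In SK-N-BE(2) it was 8.38, 8.99 and 8.59 with shERK5-4, 9.39, 9.43 and 9.62 with shERK5-5, and 8.88, 8.70 and 8.84 with shNSC. Here the shERK5-5 arrays lay above all others. The log2 change was -0.63 ± 0.19 with shERK5-4 in CHLA-90 (adjusted p = 0.0239) and 0.67 ± 0.19 with shERK5-5 in SK-N-BE(2) (adjusted p = 0.0199). The CHLA-90 call did not survive dropping shNSC replicate 1 (adjusted p = 0.0693) or 2 (0.0662), nor shERK5-4 replicate 1 (0.115) or 2 (0.117), over a range of 0.00133 to 1. The SK-N-BE(2) call did not survive dropping shNSC replicate 2 (0.084) nor shERK5-5 replicate 3 (0.0911), over a range of 0.00509 to 1. The change with shERK5-5 in CHLA-90 was -0.15 (95% interval -0.54 to 0.25, adjusted p = 0.691) and with shERK5-4 in SK-N-BE(2) -0.15 (-0.55 to 0.24, adjusted p = 0.662).

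**Figure D2:**
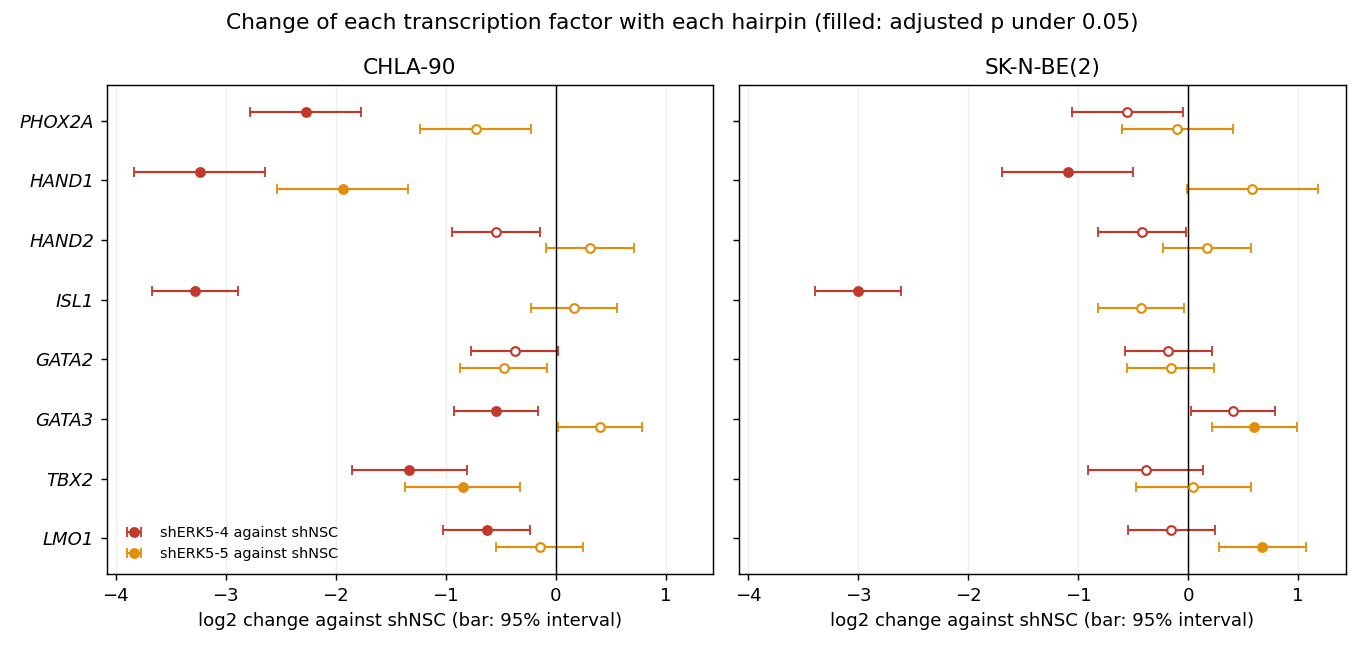
Log2 change of each gene (rows) with shERK5-4 and shERK5-5 against shNSC, with 95% intervals, in CHLA-90 (left) and SK-N-BE(2) (right). Filled points passed an adjusted p of 0.05 and open points did not, and the shERK5-4 points of ISL1 lie near -3 in both lines.

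The hairpins were then compared with each other, because both lowered MAPK7 to a similar extent (log2 difference of shERK5-4 from shERK5-5 -0.08, 95% interval -0.48 to 0.32, in CHLA-90 and -0.06, -0.46 to 0.35, in SK-N-BE(2)). Signals of the circuit were lower with shERK5-4 than with shERK5-5 in 5 of 8 genes in CHLA-90 and in 4 of 8 in SK-N-BE(2), and higher in 0, where 27.2% of all probes were called in CHLA-90 (12.4% lower and 14.8% higher) and 24.5% in SK-N-BE(2) (12.6% lower and 11.8% higher). ISL1 differed by -3.45 ± 0.19 in CHLA-90 (adjusted p = 1.19e-11) and -2.58 ± 0.19 in SK-N-BE(2) (adjusted p = 5.34e-10). HAND1 differed by -1.30 ± 0.29 (adjusted p = 0.00155) and -1.68 ± 0.29 (adjusted p = 9.16e-05). HAND2 differed by -0.85 ± 0.19 (adjusted p = 0.00186) and -0.59 ± 0.19 (adjusted p = 0.0258), and its SK-N-BE(2) call did not survive dropping shERK5-4 replicate 1 (adjusted p = 0.145) nor shERK5-5 replicate 3 (0.142), over a range of 0.0109 to 1. These 3 genes were called in both lines, a pattern whose share among all probes was not counted. PHOX2A (-1.55 ± 0.24, adjusted p = 4.52e-05) and GATA3 (-0.94 ± 0.185, adjusted p = 0.000496) were called in CHLA-90, and LMO1 (-0.83 ± 0.19, adjusted p = 0.00201) in SK-N-BE(2). PHOX2A in SK-N-BE(2) differed by -0.46 (adjusted p = 0.207) and was called only with the replicate block (0.0447). GATA2 differed by 0.10 (95% interval -0.29 to 0.49) in CHLA-90 and -0.02 (-0.41 to 0.37) in SK-N-BE(2), with no call. TBX2 was not called in either line, at -0.48 (-1.01 to 0.04) in CHLA-90 and -0.43 (-0.96 to 0.09) in SK-N-BE(2), but without CHLA-90 shERK5-5 replicate 1 the CHLA-90 difference was -0.89 (adjusted p = 0.00278). LMO1 in CHLA-90 (-0.48, adjusted p = 0.0668) passed once shERK5-4 replicate 3 (0.0182) or shERK5-5 replicate 3 (0.0441) was dropped.

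The lines responded differently in 3 genes with shERK5-4 and in 1 with shERK5-5, all with the lower value in CHLA-90. Among all probes 7.23% were called in the shERK5-4 comparison, 3.33% lower and 3.89% higher. In the shERK5-5 comparison 5.39% were called, 2.99% lower and 2.40% higher. For HAND1, the CHLA-90 change less the SK-N-BE(2) change was -2.14 ± 0.41 with shERK5-4 (adjusted p = 0.00174) and -2.52 ± 0.41 with shERK5-5 (adjusted p = 0.000799), and both calls held in all 22 alternatives. PHOX2A differed by -1.72 ± 0.34 with shERK5-4 (adjusted p = 0.00274), a call lost only with a required 1.5-fold (adjusted p = 0.105, range 0.000116 to 0.105), and by -0.63 (95% interval -1.35 to 0.08, adjusted p = 0.326) with shERK5-5. GATA3 differed by -0.95 ± 0.26 with shERK5-4 (adjusted p = 0.027). That call did not survive dropping CHLA-90 shNSC replicate 1 (0.0574) or 3 (0.0794), CHLA-90 shERK5-4 replicate 1 (0.0691) or 2 (0.0523), SK-N-BE(2) shNSC replicate 2 (0.0769), or SK-N-BE(2) shERK5-4 replicate 2 (0.0666) or 3 (0.0662), over a range of 0.00261 to 1. For ISL1 the shERK5-4 changes of the lines differed by -0.28 (95% interval -0.83 to 0.28, adjusted p = 0.649). For TBX2 the differences were -0.94 (-1.69 to -0.20, adjusted p = 0.126) with shERK5-4 and -0.89 (-1.64 to -0.15, adjusted p = 0.161) with shERK5-5. The shERK5-4 difference passed in the fit to the compared groups alone (adjusted p = 0.0441) and in no other of its 22 alternatives. LMO1 differed by -0.82 with shERK5-5 (adjusted p = 0.0818) and was called without CHLA-90 shERK5-5 replicate 2 (-0.97, adjusted p = 0.04).

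**Figure D3:**
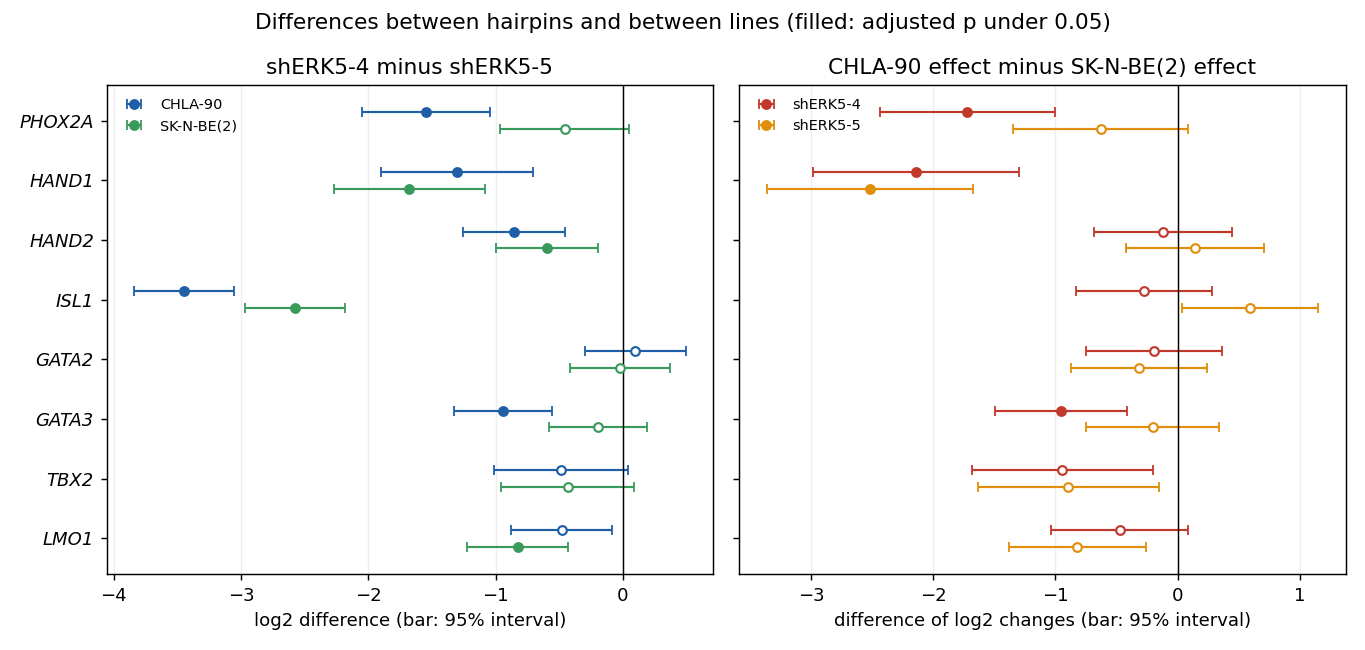
Left, log2 signal with shERK5-4 minus that with shERK5-5 for each gene (rows) in CHLA-90 and SK-N-BE(2). Right, log2 change against shNSC in CHLA-90 less the SK-N-BE(2) change for each hairpin. Bars are 95% intervals and filled points passed an adjusted p of 0.05. The ISL1 points lie furthest left in the left panel and the HAND1 points in the right one.

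The lines also use the circuit at different levels when the control hairpin is present. As the array medians differ between the lines, signals were taken here relative to the median of each array. On that scale ISL1 was 4.21 in CHLA-90 and 8.17 in SK-N-BE(2), a difference of -3.96 ± 0.19 (adjusted p = 5.87e-14). TBX2 was 5.74 in CHLA-90 and 7.83 in SK-N-BE(2) (-2.10 ± 0.26, adjusted p = 4.37e-07), PHOX2A 5.30 and 6.68 (-1.38 ± 0.25, adjusted p = 7.05e-05) and HAND1 5.14 and 6.32 (-1.19 ± 0.29, adjusted p = 0.00157). The GATA genes ran the other way. GATA2 was 7.34 in CHLA-90 and 4.97 in SK-N-BE(2), higher by 2.37 ± 0.195 (adjusted p = 7.53e-10), and GATA3 was 7.70 in CHLA-90 and 6.20 in SK-N-BE(2), higher by 1.50 ± 0.19 (adjusted p = 6.28e-07). In all, 5 of the 8 were called lower in CHLA-90 and 2 higher, where 56.3% of all probes were called, 37.1% lower and 19.2% higher. The median difference of all probes was -0.27 on this scale and 0.45 in the values as deposited. Higher probes made up 34.1% of the calls on this scale, 80.6% in the values as deposited and 49.0% after quantile normalization. On the deposited scale the difference was -3.24 for ISL1, -1.38 for TBX2, -0.66 for PHOX2A, 3.08 for GATA2 and 2.22 for GATA3, all called in the same direction, while HAND1 (-0.47, adjusted p = 0.166) was not called. LMO1 was lower relative to the median (-0.56 ± 0.19, adjusted p = 0.0191) but at 0.16 (adjusted p = 0.471) in the deposited values, and its call was also lost without SK-N-BE(2) shNSC replicate 1 (adjusted p = 0.0526) or 3 (0.0525). HAND2 differed by -0.14 (95% interval -0.55 to 0.27, adjusted p = 0.559) relative to the median and was called higher, by 0.58 (adjusted p = 0.0134), in the deposited values, so no direction can be given for LMO1 or HAND2.

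Of genes that such factors are known to control in sympathetic cells, 15 were measured, among them genes of catecholamine synthesis, storage and transport. The list was chosen with earlier results of these data known, so its counts and medians are descriptions and not independent support. With shERK5-4 in CHLA-90, 12 of the 15 were lower and 0 higher, with a median log2 change of -1.64, against 0.01 over all probes. In SK-N-BE(2) 7 were lower and 0 higher, with a median of -0.32. With shERK5-5, 5 were lower and 0 higher in CHLA-90 (median -0.44), and 1 was lower (SLC6A2) and 1 higher (ALK, a receptor kinase, chosen after its values were seen) in SK-N-BE(2) (median -0.02). Of all probes, 8.25% were lower and 10.0% higher with shERK5-4 in CHLA-90, and 11.7% lower and 12.2% higher in SK-N-BE(2). With shERK5-5, 6.84% were lower and 5.85% higher in CHLA-90, and 6.07% lower and 6.76% higher in SK-N-BE(2). The calls with shERK5-5 in SK-N-BE(2) were thus near the 12.8% of all probes called there. The list of 15 shares DBH, TH, CHGA and CHGB with the neuroblastoma markers. DBH, the enzyme that makes noradrenaline, had a log2 signal of 8.13, 8.30 and 8.78 with shERK5-4, 12.94, 13.16 and 13.42 with shERK5-5, and 13.62, 13.45 and 13.95 with shNSC in CHLA-90. It fell to 2.59% of its shNSC signal with shERK5-4 there (log2 change -5.27 ± 0.25, adjusted p = 1.62e-12). With shERK5-5 in CHLA-90 it changed by -0.50 (adjusted p = 0.214). In SK-N-BE(2) DBH had 3.71, 3.91 and 3.80 with shERK5-4, 5.61, 4.48 and 4.46 with shERK5-5, and 4.95, 4.60 and 5.07 with shNSC. All these signals were below the array median. The SK-N-BE(2) changes, at this low signal, were -1.07 ± 0.25 with shERK5-4 (adjusted p = 0.00258) and -0.02 with shERK5-5 (adjusted p = 0.981). CHGA, a dense-core granule protein, changed in CHLA-90 by -3.92 ± 0.20 under shERK5-4 and -1.07 ± 0.20 under shERK5-5 (adjusted p = 6e-12 and 0.000899), and by -2.45 ± 0.20 (adjusted p = 4.46e-09) and 0.23 (adjusted p = 0.585) in SK-N-BE(2). SLC6A2, the noradrenaline transporter, changed by -1.97 ± 0.18 and -1.09 ± 0.18 in CHLA-90 (adjusted p = 3.85e-08 and 0.000245), and by 0.09 (adjusted p = 0.804) and -0.86 ± 0.18 (adjusted p = 0.00184) in SK-N-BE(2). CYB561, a cytochrome of the granule membrane, changed by -2.14 ± 0.23 and -1.40 ± 0.23 in CHLA-90 (adjusted p = 3.97e-07 and 0.000229) and was not called in SK-N-BE(2). TH, the first enzyme of the pathway, was not called in CHLA-90 (0.06 with shERK5-4, adjusted p = 0.925) and fell with shERK5-4 in SK-N-BE(2) (-0.84 ± 0.25, adjusted p = 0.0174).

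**Figure D4:**
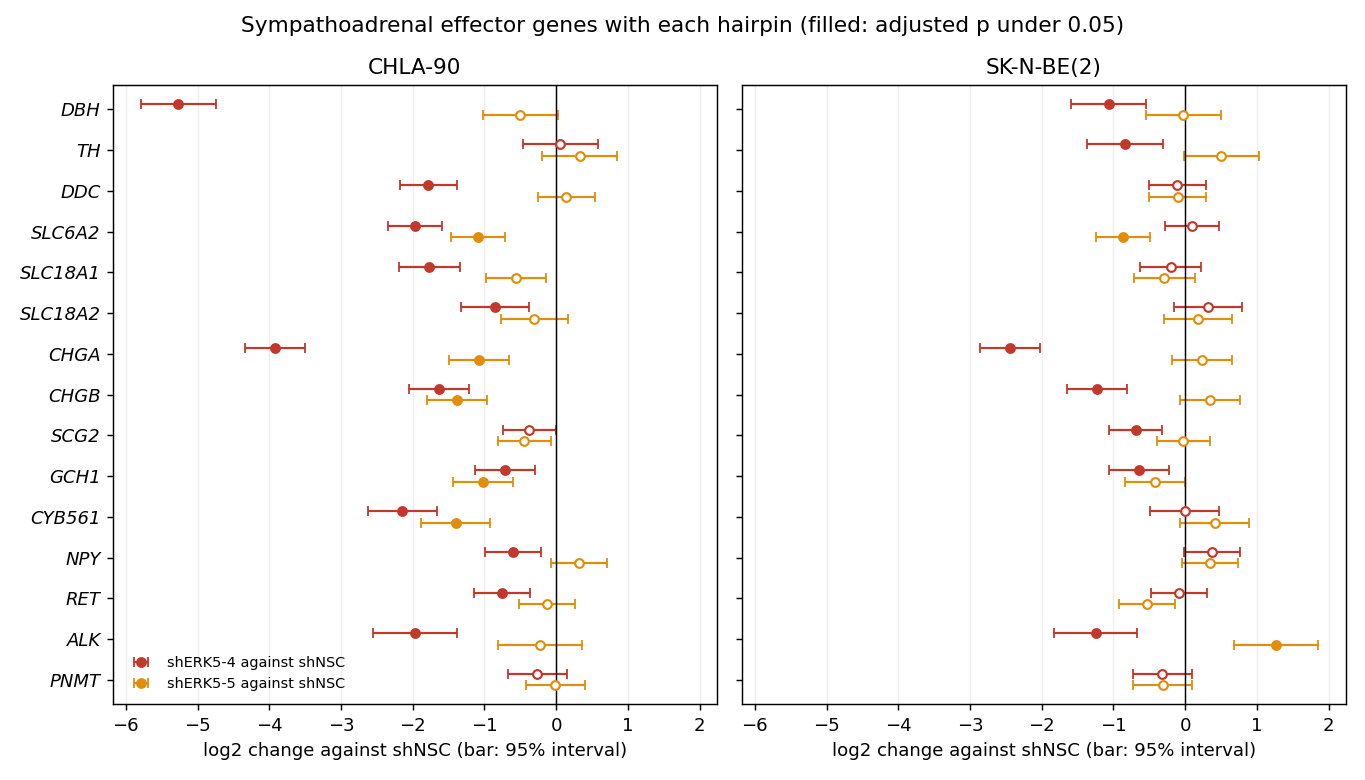
Log2 change of the 15 sympathoadrenal effector genes (rows) with each hairpin against shNSC in CHLA-90 (left) and SK-N-BE(2) (right), with 95% intervals. Filled points passed an adjusted p of 0.05, and DBH with shERK5-4 in CHLA-90 lies furthest left, at -5.27.

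Among 15 other adrenergic transcription factors measured, 4 were lower and 1 higher with shERK5-4 in CHLA-90 and likewise 4 and 1 in SK-N-BE(2). With shERK5-5, 1 was lower and 6 higher in CHLA-90, and 2 lower and 2 higher in SK-N-BE(2). For comparison, the share of all probes called was 18.3% for shERK5-4 and 12.7% for shERK5-5 in CHLA-90, and 23.9% and 12.8% in SK-N-BE(2). MYCN, which joins the circuit as an amplified oncogene in SK-N-BE(2), changed in CHLA-90 by -1.89 ± 0.17 under shERK5-4 and 0.97 ± 0.17 under shERK5-5 (adjusted p = 3.46e-08 and 0.000503), and by -2.02 ± 0.17 and -0.80 ± 0.17 in SK-N-BE(2) (adjusted p = 7.12e-09 and 0.00221). SOX11 rose with shERK5-5 in CHLA-90 (0.63 ± 0.17, adjusted p = 0.017), and so did SATB1 (0.50 ± 0.165, adjusted p = 0.0496), which also rose with shERK5-4 in SK-N-BE(2) (0.50 ± 0.165, adjusted p = 0.0283). CUX2 fell with shERK5-5 in CHLA-90 (-0.90 ± 0.24, adjusted p = 0.015). Chosen after their values were seen, KLF7, SOX4 and TFAP2B moved in opposite directions with the hairpins in CHLA-90, as did 1.40% of all probes. KLF7 changed by -1.77 with shERK5-4 and 1.12 with shERK5-5 (adjusted p = 1.93e-08 and 3.28e-05). SOX4 changed by -1.82 and 1.31 (adjusted p = 8.36e-07 and 0.00014), and TFAP2B by -1.94 and 1.46 (adjusted p = 1.18e-07 and 1.78e-05).

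Of 12 LIM, E-protein and GATA cofactors, 1 was lower and 0 higher with shERK5-4 and 0 changed with shERK5-5 in CHLA-90 by limma, and 2 were lower and 1 higher with shERK5-4, 1 lower and 1 higher with shERK5-5, in SK-N-BE(2). Over all probes 18.3% and 12.7% were called in CHLA-90 and 23.9% and 12.8% in SK-N-BE(2) with shERK5-4 and shERK5-5. TCF4, an E-protein that pairs with HAND factors, fell with shERK5-4 in CHLA-90 (-1.71 ± 0.15, adjusted p = 1.96e-08) and in SK-N-BE(2) (-2.48 ± 0.15, adjusted p = 3.76e-11), and with shERK5-5 in SK-N-BE(2) (-0.56 ± 0.15, adjusted p = 0.0142). LDB2, a LIM-domain binding adaptor, rose with shERK5-4 in SK-N-BE(2) (1.53 ± 0.24, adjusted p = 3.84e-05), and SSBP2, a partner of LDB adaptors, fell there (-0.74 ± 0.19, adjusted p = 0.00438) and rose with shERK5-5 (0.57 ± 0.19, adjusted p = 0.047). ZFPM1, a GATA cofactor, had no call. LDB1, the adaptor through which LMO1 works, changed by -0.30 (adjusted p = 0.281) with shERK5-4 in CHLA-90 and by -0.04 (adjusted p = 0.912) in SK-N-BE(2). Of 11 family relatives outside the circuit, 3 were lower and 1 higher with shERK5-4 in CHLA-90 and 2 lower and 0 higher in SK-N-BE(2), and with shERK5-5 1 was lower in CHLA-90 and 0 in SK-N-BE(2), with 0 higher in both. LMO4, a paralogue of LMO1, fell with shERK5-4 by more than LMO1 did, at -2.95 ± 0.17 in CHLA-90 and -1.76 ± 0.17 in SK-N-BE(2) (adjusted p = 3.78e-11 and 6.07e-08), and with shERK5-5 in CHLA-90 (-0.80 ± 0.17, adjusted p = 0.00325). LMO3 rose with shERK5-4 in CHLA-90 (0.96 ± 0.30, adjusted p = 0.0275), and GATA4 fell there (-0.61 ± 0.20, adjusted p = 0.0352). LMO2 had no call.

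The mesenchymal state is the alternative identity of neuroblastoma cells. Of 22 of its factors measured, 3 were lower and 2 higher with shERK5-4 and 1 lower and 2 higher with shERK5-5 in CHLA-90, and 5 were lower and 0 higher with shERK5-4 and 0 lower and 1 higher with shERK5-5 in SK-N-BE(2). The shares of all probes called were 18.3% and 12.7% in CHLA-90 and 23.9% and 12.8% in SK-N-BE(2). The median log2 change of the 22 lay between -0.13 and 0.09 in the 4 comparisons. SNAI2 fell with shERK5-4 in both lines (log2 change -2.52 ± 0.305 in each, adjusted p = 2.09e-06 in CHLA-90 and 1.24e-06 in SK-N-BE(2)), and so did TWIST1, at -1.72 ± 0.27 in CHLA-90 (adjusted p = 6.44e-05) and -1.07 ± 0.27 in SK-N-BE(2) (adjusted p = 0.00484). SNAI2 also fell with shERK5-5 in CHLA-90 (-1.39 ± 0.305, adjusted p = 0.00355). SMAD3 rose with shERK5-5 in CHLA-90 (1.37 ± 0.17, adjusted p = 1.12e-05) and fell with shERK5-4 in SK-N-BE(2) (-0.52 ± 0.17, adjusted p = 0.0311). BHLHE41 rose in CHLA-90, with shERK5-4 (1.23 ± 0.225, adjusted p = 0.000325) and shERK5-5 (0.78 ± 0.225, adjusted p = 0.0244).

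The 8 genes were also set against 13412 other genes by Pearson's r over the 18 arrays, after the mean of the line had been subtracted from each value. The arrays share groups and lines, so these values describe the pattern and carry no test. The genes most like ISL1 were SYNPO2, AK3 and MAN1A1 (r = 0.988, 0.986 and 0.984), and those most like PHOX2A were SEPTIN6, DBNDD1 and BGN (0.968, 0.964 and 0.932). HAND1 was closest to ENG, BAX and AHNAK (0.956, 0.940 and 0.926), and TBX2 to HAND1, ENG and BGN (0.922, 0.910 and 0.896). HAND2 was closest to NONO, VIP and CBLB (0.930, 0.908 and 0.907), and LMO1 to CENPQ, FAM222A and GPS1 (0.918, 0.879 and 0.871). GATA3 was closest to ETV6, EPB41 and ENTREP3 (0.910, 0.899 and 0.897). GATA2 had the weakest match, to ASTN1, PRPF31 and CLK2 (0.842, 0.829 and 0.821). Between the 8 genes the highest value was that of HAND1 with TBX2 (0.922) and the lowest that of GATA2 with GATA3 (0.150), and HAND1 and HAND2 stood at 0.647.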

How the data were processed

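Per the labels, total RNA of 18 cultures was measured on whole-transcript expression arrays, 3 in each of 6 groups. The authors deposited 1 table of normalized log2 signals for 21448 probes. The log base was read from the range of the values, and none of the sources used here gives the normalization method or the genome build. Array number, not read depth, limits the precision.

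From these log2 values, limma 3.58.1 in R 4.3.3 (lmFit, eBayes) fitted 6 group means over all 18 arrays, and p-values were adjusted over all probes by Benjamini and Hochberg's method, with a threshold of 0.05. SEs are limma's. The lines were compared after each array's median was subtracted. The fit was tested on simulated data. The 8 genes and all gene lists were chosen with earlier results of these data known. Named besides the 8 genes were MAPK7, MYCN and DBH, up to 4 genes of each list with the smallest p for the mean of the hairpins in either line, and the 3 genes most like each member among those above the 25 percentile, with others marked in the text or, as for LDB1 and TH, chosen for their role. A gene with several probes was read from the probe of highest mean. Alternatives were quantile normalization, median-centring, leaving out dim probes, averaging probes, fits to fewer groups, array weights, trended robust variances, a replicate block, a threshold of 0.01, a minimum fold of 1.5, and leaving out each array. Replicate numbers were not taken as pairs, since the labels state triplicates and no pairing. After each probe's group mean was subtracted, same-numbered arrays of a line correlated at -0.126 to 0.204, with 7 of 18 values above 0.1. The replicate 3 pairs, at 0.114 to 0.204, were all among those 7. As 10 of 18 arrays correlated best with their own number, the replicate block is given as an alternative. Motifs were searched and figures drawn with Python 3.11.15 and matplotlib 3.10.9.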

Additional observations from a re-analysis of the deposited data

Results flagged for a closer look

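The change against shNSC differed between the lines, by limma's test of the difference itself, in 4 cases among the 8 genes. Of all probes 7.23% were called in this comparison with shERK5-4 and 5.39% with shERK5-5. With shERK5-4 the CHLA-90 change of PHOX2A less its SK-N-BE(2) change was -1.72 on the log2 scale (adjusted p = 0.00274). That call was lost with a required 1.5-fold (adjusted p = 0.105). The HAND1 difference was -2.14 with shERK5-4 (adjusted p = 0.00174) and -2.52 with shERK5-5 (adjusted p = 0.000799). The GATA3 difference with shERK5-4 was -0.95 (adjusted p = 0.027), and the call was lost when any 1 of 7 of its 12 arrays was left out.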

How the results depend on the processing

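Of 1288 recomputed log2 changes and differences of the 8 genes, 1181 kept their direction and side of the threshold, 65 lost a call, 25 gained one and 17 changed sign. Between the lines HAND2 (0.58) and LMO1 (0.16) changed sign in the values as deposited, which keep the gap of 0.75 between the array medians of the lines, and HAND2 (0.17) after quantile normalization. The other 14 passed on neither side. TBX2 with shERK5-5 in SK-N-BE(2) was -0.0287 after quantile normalization, -0.0191 with array weights and -0.0467 to 0.138 with an array left out. GATA2 between the hairpins in SK-N-BE(2) was 0.045, 0.0486 and -0.115 to 0.16 in the same settings. With an array left out PHOX2A with shERK5-5 in SK-N-BE(2) was -0.375 to 0.118, GATA3 between the hairpins there -0.332 to 0.0433, and HAND2 for the difference between the lines with shERK5-4 -0.27 to 0.01. The counts of called genes changed as follows. With shERK5-5 in SK-N-BE(2) the count of 2 was 1 after quantile normalization, 1 in the fit to that line alone, 0 at a threshold of 0.01, 0 with a minimum fold of 1.5, and 0 to 1 when an array was left out. In CHLA-90 the count of 2 was 1 in the fit to the compared groups alone, 1 with array weights, 1 at a threshold of 0.01, 1 with a minimum fold of 1.5, and 1 to 2 when an array was left out. The minimum fold of 1.5 also left 3 of 6 calls with shERK5-4 in CHLA-90, 1 of 2 in SK-N-BE(2), 2 of 5 between the hairpins in CHLA-90, 2 of 4 in SK-N-BE(2), and 1 of 3 for the difference between the lines with shERK5-4. With an array left out the counts were 4 to 6 with shERK5-4 in CHLA-90, 2 to 3 in SK-N-BE(2), 5 to 6 between the hairpins in CHLA-90, 3 to 4 in SK-N-BE(2), 6 to 7 between the lines, and for the difference between the lines 2 to 3 with shERK5-4 and 1 to 2 with shERK5-5. The cause of these shifts was not tested, apart from the stricter rules and fewer arrays themselves. With the replicate block the counts in CHLA-90 were 6 (shERK5-4) and 3 (shERK5-5), and in SK-N-BE(2) they were 3 and 2. Between the hairpins it was 5 in both lines. It added calls for PHOX2A with shERK5-4 (adjusted p = 0.0156) and between the hairpins (0.0447) in SK-N-BE(2) and with shERK5-5 in CHLA-90 (0.00534), and with shERK5-4 in CHLA-90 it added HAND2 (0.0267) and lost GATA3 (0.0502). Same-numbered arrays correlated at -0.126 to 0.204 after each probe's group mean was subtracted, and 10 of 18 arrays correlated best with their own number. The block was not run between the lines. With no detection calls, signal over background is unknown for low probes.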
